A study of Mus musculus with 18 samples.

Results

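Ferritin and iron handling in double negative T cells (DNT cells) is described here through 9 genes: Fth1, Ftl1, Tfrc, Hmox1, Slc11a2, Slc40a1, Ncoa4, Ireb2 and Aco1. They were taken by symbol from the 53509 genes listed in any of 3 count tables. They were chosen by the level of Fth1, which was much higher with the ATP analogue ATPgs than without it in these same libraries. Values of the ATPgs comparison are therefore given for the 9 genes as a description, without a test. The study asked how extracellular purines act on DNT cells, T cells that lack CD4 and CD8. All 18 libraries came from wild-type mouse cells of spleen and lymph node that had been converted from CD4+ T cells and activated with anti-CD3 and anti-CD28. They formed 6 groups of 3, in 3 sets that each had a count table of its own. In set 1, cells without ligand (WT) were set beside cells given 400 µM ATPgs, which resists hydrolysis (WTATPgs). In set 2, cells without ligand (DNT) were set beside cells given 400 µM adenosine (ADO). In set 3, all cells received 250 nM of an inhibitor of the adenosine receptor A2aR, alone (R) or with 400 µM adenosine (RA). Ligands were on the cells for 6 h. The labels do not say whether the 3 libraries of a group were separate cultures or animals, so the tests measure only the spread between these libraries.

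Ferritin is a hollow protein shell that stores iron. Its heavy chain (Fth1) oxidises the iron so that it can be stored, and its light chain (Ftl1) helps to form the mineral core. Iron enters through the transferrin receptor (Tfrc) and crosses the endosomal membrane through the divalent metal transporter (Slc11a2). It leaves the cell through ferroportin (Slc40a1), is released from ferritin when the cargo receptor Ncoa4 carries ferritin to lysosomes, and is freed from heme by heme oxygenase 1 (Hmox1). The iron regulatory proteins, encoded by Aco1 and Ireb2, bind a short RNA hairpin, the iron-responsive element (IRE), when iron is scarce. Bound in a 5′ UTR, as in ferritin mRNA, they block translation. Bound in the 3′ UTR of Tfrc mRNA, they protect it from decay. Counts of RNA show neither ferritin protein nor iron itself. Activated T cells take up much iron through Tfrc as they begin to divide.

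The hairpins are shown because 4 of the 9 genes hold their letters, 3 in the 5′ UTR and 1 in the 3′ UTR, and the RNA levels of these genes are the subject of most results below. A search of annotated UTRs (GRCm38, GENCODE M21) asked for an unpaired C, 5 bases, the loop CAGTGN and 5 bases that pair with the first 5 (G with T allowed), with at least 3 of 5 further pairs below the unpaired C. Each sequence is 30 bases in the direction of the transcript, and the 6 loop bases are in capitals. In the 5′ UTR the pattern was found in Fth1 at chr19:9982732-9982761 (plus strand), Ftl1 at chr7:45459778-45459807 (minus strand) and Slc40a1 at chr1:45925464-45925493 (minus strand).
Fth1: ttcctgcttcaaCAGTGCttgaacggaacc
Ftl1: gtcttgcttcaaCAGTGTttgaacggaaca
Slc40a1: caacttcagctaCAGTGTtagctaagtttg
In the 3′ UTR it was found 4 times in Tfrc, on the plus strand of chromosome 16, and all 4 lie within one UTR at chr16:32631219-32631248, chr16:32631598-32631627, chr16:32631663-32631692 and chr16:32631710-32631739, in this order.
Tfrc IRE 1: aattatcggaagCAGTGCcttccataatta
Tfrc IRE 2: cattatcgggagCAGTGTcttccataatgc
Tfrc IRE 3: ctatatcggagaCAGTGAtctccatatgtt
Tfrc IRE 4: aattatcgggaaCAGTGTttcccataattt
Of 20045 genes with an annotated 5′ UTR, 9 (0.0449%) held the pattern there, and of 20857 genes with a 3′ UTR, 36 (0.173%) did. The other 5 genes of the 9 held no match to these letters. A hairpin with other loop letters or with a break in the 5 upper pairs is missed by this search. The matches are therefore not a full set of elements, and a gene without a match may still hold one.

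Libraries held 20156082 to 24331577 counts. Variation between libraries of a group, as edgeR's common coefficient, came to 2.74% for set 2, 10.6% for set 1 and 19.6% for set 3, where the R libraries differed most from each other. WTATPgs replicates 1 and 2 were the pair of closest libraries in any group (chi-square per degree of freedom 1.65), and replicate 3 stood apart from both (25.3 and 25.4). R replicate 3 was scaled up by 1.22 by the TMM factors (trimmed mean of M values, a correction for RNA composition), against 1.01 and 0.929 in the other R libraries. As a check of the labelled cell type, 13 T cell genes summed to between 3453 and 4970 CPM in every library (CPM are counts scaled to a fixed library total), and Cd4, Cd8a and Cd8b1 together to between 6.38 and 26.7 CPM. A list of 25 macrophage, monocyte and neutrophil markers summed to 64.9 to 70.8 CPM in WT, but to 258, 263 and 69.7 CPM in WTATPgs replicates 1, 2 and 3. In the other sets these markers summed to 17.9 to 20.8 CPM in DNT, 26.6 to 31.3 in ADO, 117 to 148 in R and 73.2 to 81.6 in RA. All CPM values below, other than shares and ratios of counts, were scaled with TMM factors within a set.

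Fth1 (ENSMUSG00000024661, chr19:9980598-9985098) was at 447, 451 and 450 CPM in WT and at 1099, 1088 and 1172 CPM in WTATPgs. The 3 treated libraries were all far above the 3 controls, and the controls lay within a few CPM of each other. The means were 449 ± 1.93 and 1120 ± 45.7 CPM (SD, n = 3), a log2 fold change of 1.32 ± 0.04 (SE) or 2.49-fold. Ftl1 (ENSMUSG00000050708, chr7:45457944-45459884) was at 82.6, 82.7 and 90.6 CPM in WT and at 154, 134 and 113 CPM in WTATPgs. These groups did not overlap either, but the treated libraries were spread more widely, and replicate 3 was the lowest for Ftl1 and the highest for Fth1. Its log2 fold change was 0.65 ± 0.11. Both ferritin chains were thus higher in all 3 treated libraries, the heavy chain by the larger factor.

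Tfrc (ENSMUSG00000022797, chr16:32608920-32632794), the route of iron entry, was at 856, 884 and 893 CPM in WT and at 566, 565 and 634 CPM in WTATPgs. Every treated library was below every control, with a log2 fold change of -0.58 ± 0.05. Hmox1 (ENSMUSG00000005413, chr8:75093621-75100589), which opens the heme ring, was at 170, 163 and 161 CPM in WT and at 265, 272 and 322 CPM in WTATPgs. All treated libraries were above the controls, with a log2 fold change of 0.80 ± 0.07. The genes of the regulatory proteins were slightly lower in every treated library: Ireb2 (ENSMUSG00000032293, chr9:54863789-54912530) by a log2 fold change of -0.17 ± 0.04, and Aco1 (ENSMUSG00000028405, chr4:40143081-40198338) of -0.15 ± 0.05. Slc11a2 (ENSMUSG00000023030, chr15:100387898-100425072) at 0.04 ± 0.05 and Ncoa4 (ENSMUSG00000056234, chr14:32159865-32179855) at 0.10 ± 0.05 had treated libraries that overlapped the controls. With edgeR, 37.1% of the 15124 genes tested in this comparison passed an adjusted p of 0.05, 17.7% higher and 19.4% lower. Of the 8 measurable genes, 6 had libraries that did not overlap between the groups. Nothing is read from that count, since this comparison led to their choice. The 37.1% is no background for it either, because it counts genes that passed the test. The share of all genes without overlap was not computed.

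**Figure D1:**
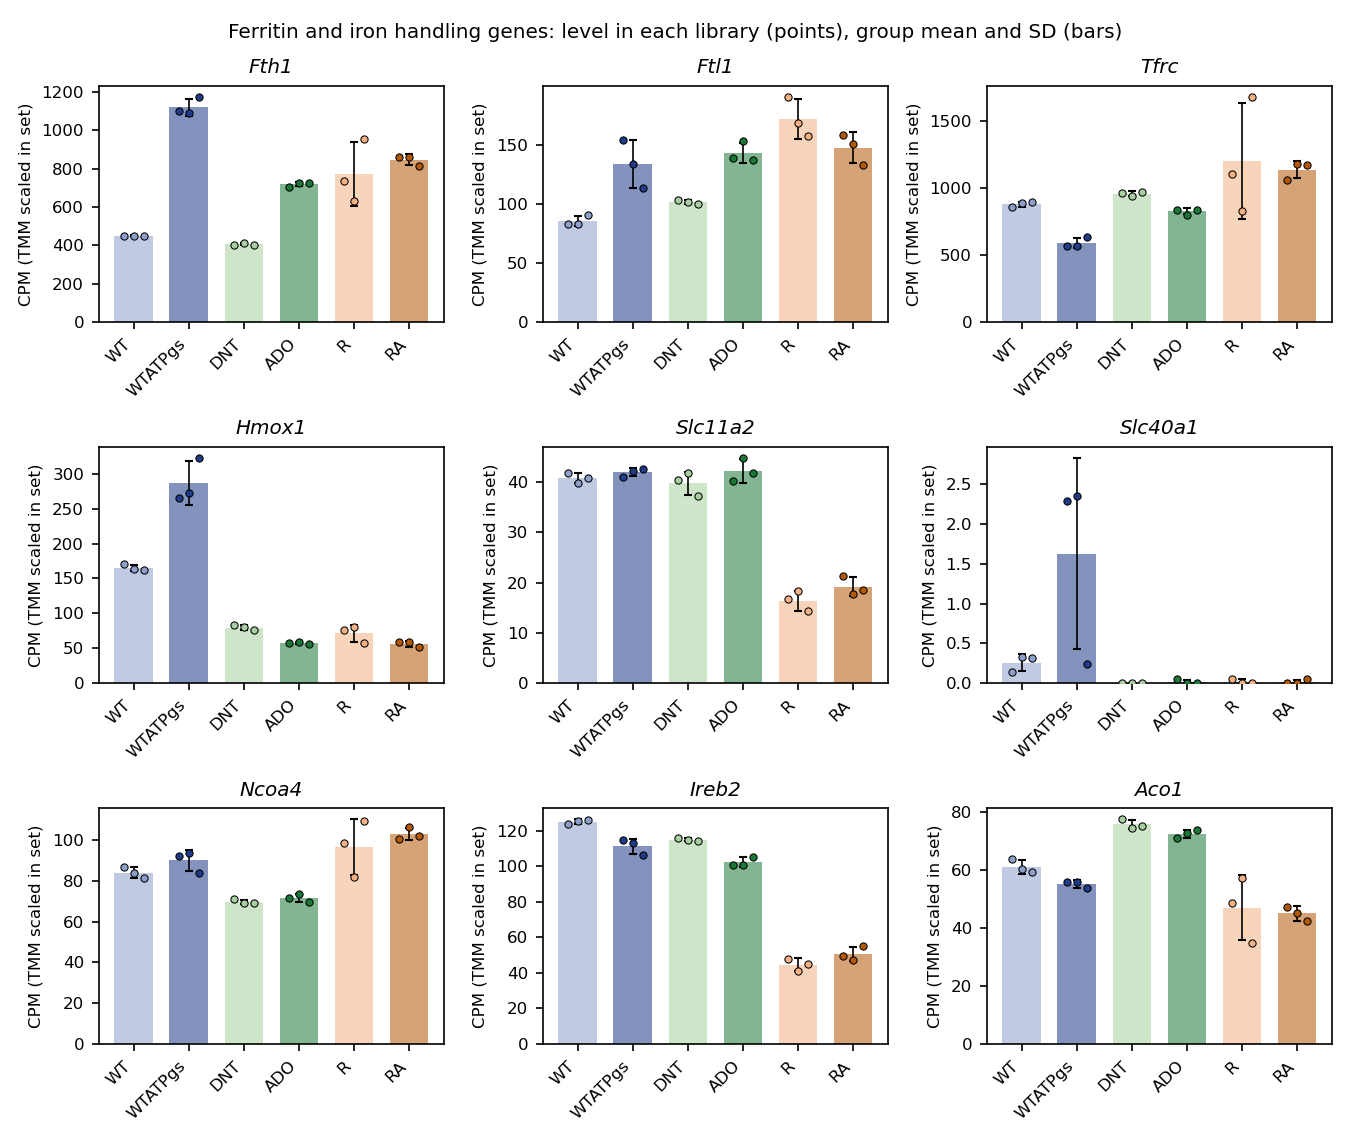
Level of the 9 genes in CPM (TMM scaled within each set) in the 6 groups; points are libraries, bars are group means and error bars are SD (n = 3). Fth1 was at 1088 to 1172 CPM in WTATPgs and 447 to 451 CPM in WT, and Slc40a1 stood out in only 2 of the 3 WTATPgs libraries.

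Slc40a1 (ENSMUSG00000025993, chr1:45908068-45926523), the iron exporter, was barely detected. It had 3, 7 and 7 counts in the WT libraries and 53, 54 and 6 counts in WTATPgs replicates 1, 2 and 3. Replicates 1 and 2 were thus high and replicate 3 was at the level of the controls. DNT libraries had 0 counts, which allows up to 0.126 to 0.137 CPM per library (3 counts, counting error only), and ADO, R and RA had 1 count each over their 3 libraries. The gene did not pass the filter on low counts in any comparison, so 8 of the 9 genes were tested.

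The WTATPgs libraries with the most Slc40a1 counts were those in which myeloid markers were high. Cd14, a monocyte and macrophage surface marker, was at 0.83, 0.87 and 1.19 CPM in WT and at 24.4, 26.3 and 5.0 CPM in WTATPgs, and Lyz2 (lysozyme) at 4.56 to 5.11 CPM in WT and at 21.6, 21.5 and 5.0 CPM in WTATPgs. Vsig4 and Timd4, markers of resident macrophages that recycle iron, were at 0 in all 18 libraries. Cd163 and C1qa were at 0.173 CPM or less in every library. The myeloid markers Adgre1 and Csf1r were instead higher in WTATPgs replicates 1 and 2 than in any WT library. Adgre1 had a mean of 1.45 CPM in WT and was at 4.8, 5.71 and 1.02 CPM in WTATPgs replicates 1, 2 and 3. Csf1r had a mean of 0.605 CPM in WT and was at 3.5, 4.14 and 0.61 CPM in WTATPgs. Over all 15124 genes tested with ATPgs, 17.7% rose and 19.4% fell. Of the 15 myeloid markers tested, 6 rose with ATPgs and 0 fell, and whether this differs from all genes was not tested. Of 9 B cell markers 1 rose and 0 fell, and their sums were 68.5 to 74.4 CPM in WT and 123, 120 and 44.9 CPM in WTATPgs, with replicate 3 below every WT library. Cd4 fell with ATPgs, from 8.39 to 10.9 CPM in WT to 3.11, 1.70 and 1.58 CPM in WTATPgs, and so did Cd8a, from 11.0 to 12.1 CPM to 6.83, 6.84 and 3.29 CPM. Both were lower in all 3 treated libraries, replicate 3 included. In replicate 3, whose myeloid sum was within the range of WT but whose Cd14 was above it, Fth1, Tfrc and Hmox1 lay outside the WT range as in the other treated libraries. Without replicate 3 the log2 fold change of Ftl1 was 0.75, and without replicate 1 it was 0.55. In bulk RNA, a change in the share of a cell type and a change of RNA per cell cannot be told apart, and the part of these cell types in the values was not tested.

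**Figure D2:**
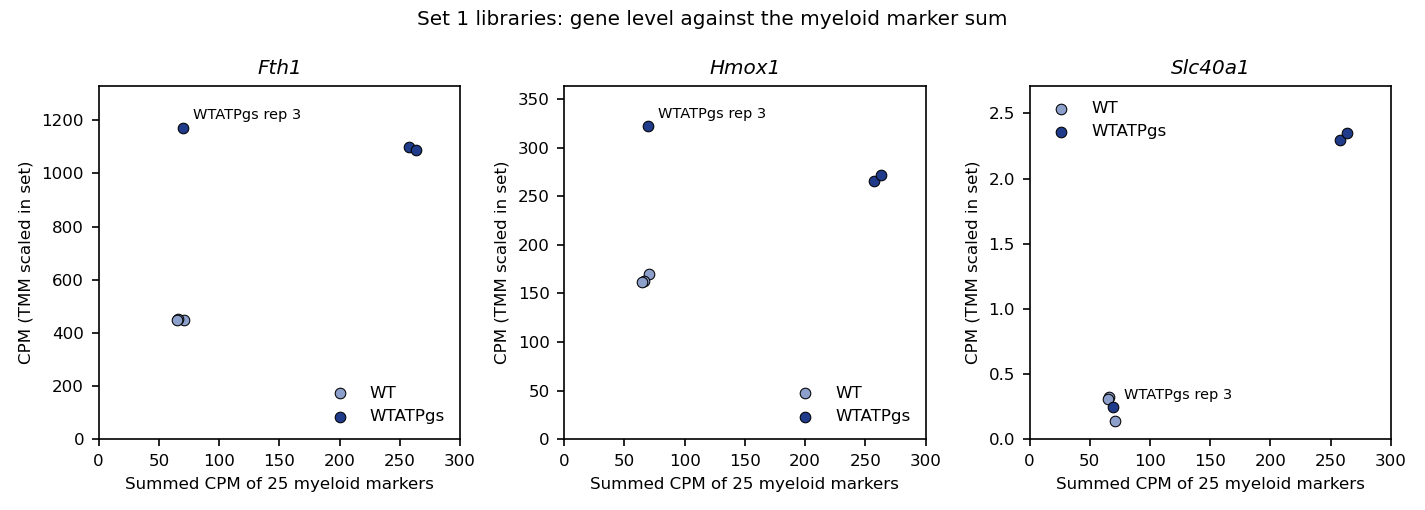
The 6 libraries of set 1: summed CPM of 25 myeloid markers (x) against the CPM of Fth1, Hmox1 and Slc40a1 (y). WTATPgs replicate 3 has a marker sum of 69.7 CPM, Fth1 at 1172 CPM and Hmox1 at 322 CPM, and its Slc40a1 is within the range of WT.

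With adenosine both ferritin chains rose and Tfrc, Hmox1 and Ireb2 fell. The adenosine comparison was not used to choose the genes and was tested with edgeR's quasi-likelihood test, adjusted over all genes (Benjamini-Hochberg). Of the 8 genes tested, 2 rose and 3 fell (62.5%), where 50.2% of all 14512 genes tested passed (25.5% higher, 24.6% lower). A share of calls this high among all genes leaves the count itself unremarkable, so the sizes carry the description.

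Fth1 was at 401, 411 and 401 CPM in DNT and at 705, 725 and 727 CPM in ADO. The groups were far apart against a spread of 5.52 and 11.9 CPM (SD, n = 3 each). It rose by 0.83 ± 0.02 on the log2 scale, 1.78-fold (edgeR adjusted p = 2.755e-36). Ftl1 was at 103, 101 and 99.7 CPM in DNT and at 139, 153 and 137 CPM in ADO, again without overlap. It rose by 0.50 ± 0.03 (edgeR adjusted p = 1.59e-16). The deposited counts can split Ftl1 from its near copies Ftl1-ps1, Ftl1-ps2 and Ftl2-ps, whose counts came to 9.30% and 10.2% of those of Ftl1 in DNT and ADO, against 1.13% and 0.895% in WT and WTATPgs. In set 3 this share was the highest, at 12.3% in R and 14.3% in RA. Summing the copies with Ftl1 gave 0.51 with adenosine in set 2, and the same step left Fth1 at 0.83.

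Tfrc was at 964, 937 and 969 CPM in DNT and at 836, 800 and 837 CPM in ADO. All ADO libraries were lower, by 0.22 ± 0.02 (log2 fold change -0.22, edgeR adjusted p = 5.452e-14). Hmox1 was at 82.6, 79.6 and 76.2 CPM in DNT and at 56.8, 58.3 and 55.7 CPM in ADO. It fell by 0.48 ± 0.04 on the log2 scale (edgeR adjusted p = 1.729e-14). Ireb2 was at 114 to 116 CPM in DNT and 101 to 106 CPM in ADO and fell by 0.17 ± 0.03 (edgeR adjusted p = 2.016e-05). Aco1 was lower in every ADO library (-0.06 ± 0.04), and Slc11a2 (0.09 ± 0.05) and Ncoa4 (0.04 ± 0.04) overlapped between the groups. None of these 3 passed the test, with edgeR adjusted p of 0.168, 0.170 and 0.400. Tfrc and Ireb2 lost their calls when all 18 libraries shared a fit, where 14.4% of all genes passed (edgeR adjusted p = 0.512 and 0.211; the lowest over all alternatives were 9.407e-27 and 3.501e-06). Of 25 myeloid markers, 8 passed the filter on low counts and were tested, and 4 rose and 1 fell, at summed levels of 26.6 to 31.3 CPM in ADO. The filter can be passed on the libraries of a single group, so a marker low in DNT enters more readily if it rises. Cd14, for example, was at 0.298 to 0.556 CPM in DNT and at 1.89 to 2.83 CPM in ADO. Nothing is therefore read from the excess of rises, and the marker counts of the other sets share this limit. Cd4 and Cd8a fell while Cd8b1 rose (log2 fold changes of -1.11, -0.48 and 0.60). The part of these cell types in the result was not tested.

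With the A2aR inhibitor present, adenosine gave no call among the 8 genes. Of 12873 genes tested, 1.14% passed in this comparison (0.287% higher, 0.855% lower), and 0 of the 8 passed at an unadjusted p of 0.05 as well, with 0 by DESeq2 and 0 by limma-voom. Fth1 was at 733, 630 and 956 CPM in R and at 862, 862 and 812 CPM in RA. The R libraries spanned the whole range of RA, so the groups overlapped, and the log2 fold change was 0.13 ± 0.20 (edgeR adjusted p = 0.882). Scaling decided the overlap: by library size alone Fth1 was at 725, 678 and 781 CPM in R and at 898, 890 and 867 CPM in RA, with every RA library above every R library and a log2 fold change of 0.28 (edgeR adjusted p = 0.554; 0.112 to 0.999 over all alternatives).

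Ftl1 was at 190, 169 and 157 CPM in R and at 158, 151 and 133 CPM in RA. Of the 3 RA libraries 2 were below every R library, and the log2 fold change was -0.22 ± 0.16 (edgeR adjusted p = 0.674). Tfrc ranged from 827 to 1675 CPM in R, with 1060 to 1174 CPM in RA inside that range. Its log2 fold change was -0.08 ± 0.26, and 0.09 by library size alone. Hmox1 was at 75.7, 80.6 and 57.6 CPM in R and at 58.6, 58.2 and 51.4 CPM in RA (-0.35 ± 0.17, edgeR adjusted p = 0.462). Without R replicate 3 it fell by 0.48 (edgeR adjusted p = 0.0183, against up to 0.902 over the alternatives), the only call among the 8 in any alternative, in a fit where 13.0% of all genes passed. The other 4 genes had log2 fold changes from -0.06 (Aco1) to 0.22 (Slc11a2), with SE of 0.15 to 0.19. Myeloid marker sums were lower in RA than in R, and 2 of the 7 markers tested fell, where 0.855% of all genes tested did. The part of these markers in the values was not tested.

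**Figure D3:**
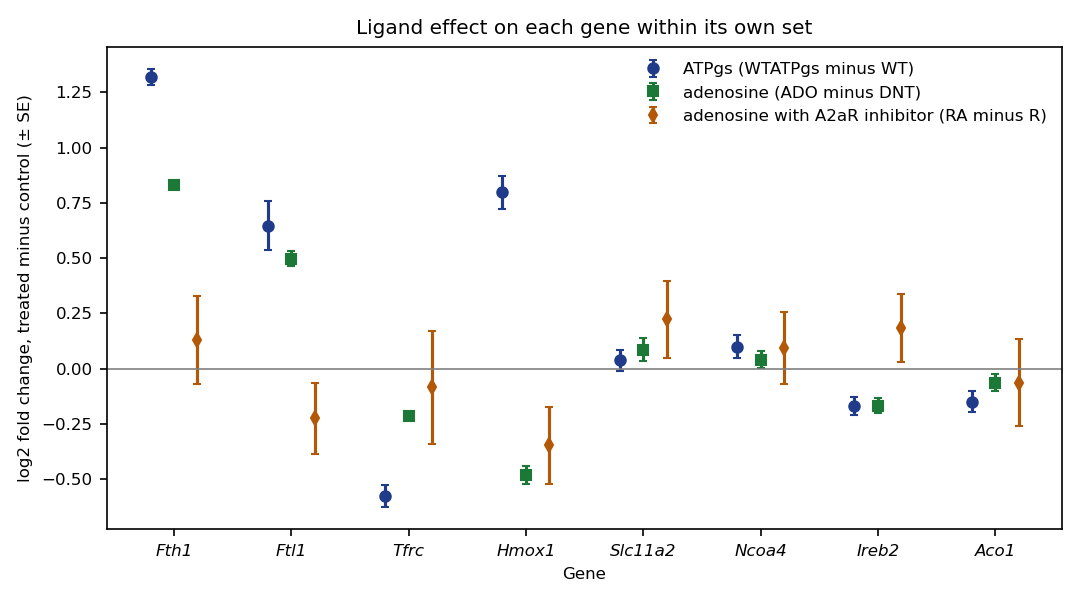
Log2 fold change (treated minus control of the same set) with SE for the 8 genes that passed the filter on low counts. Fth1 had 1.32 with ATPgs, 0.83 with adenosine and 0.13 with adenosine in the presence of the A2aR inhibitor, where the SE was 0.20.

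The effect of adenosine with the inhibitor was then compared with the effect without it, in a fit of the 12 libraries of sets 2 and 3. The inhibitor was used only in set 3, so set and inhibitor cannot be told apart. In this comparison 4.05% of 14965 genes passed (0.909% with a higher and 3.14% with a lower effect under the inhibitor), and of the 8 genes 1 passed. Ftl1 differed by -0.73 ± 0.14 on the log2 scale (edgeR adjusted p = 0.009446): it rose in ADO and had a value below 0 in RA. By library size alone this call was lost (edgeR adjusted p = 0.149; the lowest over all alternatives was 3.783e-06). Fth1 differed by the same amount with a larger error, -0.73 ± 0.22 (edgeR adjusted p = 0.0820). It passed with DESeq2 (adjusted p = 0.0233), without a filter (0.0150), with all 18 libraries in one fit (0.0264), and without R replicate 2 (0.003659) or R replicate 3 (0.004084), where its size was -0.47. Over all alternatives its adjusted p ran from 0.003659 to 0.190. Differences for Ireb2 (0.33 ± 0.14), Tfrc (0.10 ± 0.30), Hmox1 (0.12), Slc11a2, Ncoa4 and Aco1 did not pass. Without R replicate 3, which varied most, Tfrc (0.49, edgeR adjusted p = 0.0153) and Ireb2 (0.41, edgeR adjusted p = 0.0180) also passed, in a fit where 19.8% of all genes did. Ireb2 also passed with DESeq2 (adjusted p = 0.0486), where 9.27% of all genes did. The highest p over their alternatives were 0.9998 and 0.572.

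A share of a library's counts is scaled by library size alone, without TMM factors. On that scale Fth1 and Ftl1 together made up 0.0525% of counts in WT and 0.128% in WTATPgs, 0.0498% in DNT and 0.0876% in ADO, and 0.0894% in R and 0.104% in RA (means of 3). On that scale the treated libraries were all above the controls in each set. In set 3 this rests on the scaling, since with TMM factors R and RA overlapped for both ferritin genes, as given above. The ratio of a pair of genes within a library does not depend on scaling. In sets 1 and 2 the treated libraries had more of the heavy chain to each light chain than their controls. Per unit of transcript length there were 5.50 ± 0.28 Fth1 to each Ftl1 in WT and 8.91 ± 1.71 in WTATPgs, and 4.15 ± 0.10 in DNT and 5.25 ± 0.29 in ADO (SD, n = 3), with no overlap in either set. In R the ratio ran from 3.89 to 6.34 and in RA from 5.68 to 6.38, and R replicate 3 alone lay within RA. Counts of Tfrc per count of Fth1 went from 1.95 to 0.525 in set 1 and from 2.37 to 1.15 in set 2. Among these 4 groups, counts of Tfrc exceeded those of Fth1 in WT, DNT and ADO and were fewer in WTATPgs. The Tfrc transcript is the longer (4890 against 929 bases), so these counts do not rank the abundance of the 2 RNAs. Per kilobase of transcript Fth1 was the higher already without ligand, at 483 against 179 CPM in WT and 435 against 196 CPM in DNT. In set 3 the ratio was 1.31 to 1.75 in R and 1.23 to 1.44 in RA, and the groups overlapped.

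**Figure D4:**
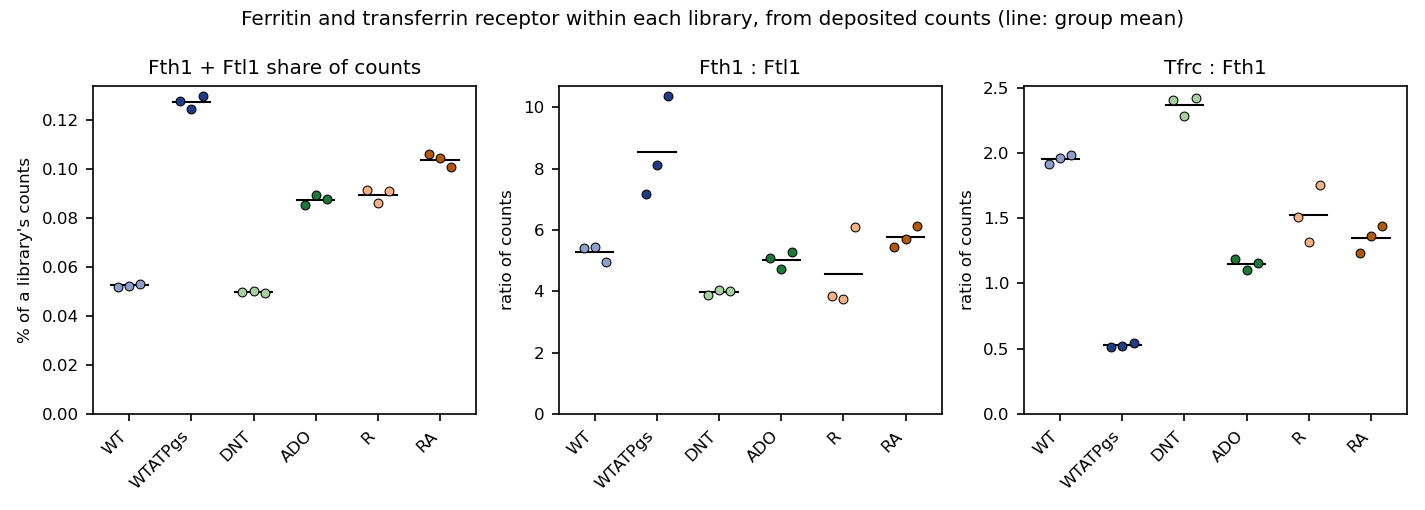
For each library, the share of counts from Fth1 and Ftl1, the ratio of Fth1 to Ftl1 counts and the ratio of Tfrc to Fth1 counts; lines are group means (n = 3). The Tfrc to Fth1 ratio had a mean of 0.525 in WTATPgs and 1.95 in WT, and R spanned 1.31 to 1.75.

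Across all 6 groups the mean level of Fth1 ran, from high to low, WTATPgs (1120 CPM), RA (845), R (773), ADO (719), WT (449) and DNT (404). R spanned 630 to 956 CPM and so overlapped both of its neighbours in this order, while the RA libraries were all above ADO. The sets were scaled separately, so such an order across sets is a description without a test. Hmox1 was at 165 ± 4.80 CPM in WT and 79.5 ± 3.17 CPM in DNT, although both groups are labelled as wild-type cells without ligand. Ireb2 was at 44.7 and 50.7 CPM in R and RA, less than the 103 to 125 CPM of the other group means, and Slc11a2 at 16.4 and 19.2 CPM against 39.8 to 42.2. Aco1 ranged from 35.0 to 57.3 CPM in R and from 42.4 to 47.4 CPM in RA, and its means elsewhere were 55.2 to 75.7 CPM. By group means, both regulators and the endosomal transporter were least abundant in the set with the inhibitor, with or without adenosine. The inhibitor and the set cannot be told apart here either.

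Iron genes outside the 9 were read from 7 lists of 90 symbols, of which 89 were in all tables. With ATPgs, 20 of 83 tested rose and 19 fell (47.0%, beside 37.1% of all genes), with a median log2 fold change of 0.010 against -0.001 over all genes. The count was 22, 25 and 25 without WT replicates 1, 2 and 3 (26.5%, 30.1% and 30.1%, beside 3913 of 15638, 4079 of 15638 and 3885 of 15584 genes in all) and 25 without WTATPgs replicate 2 (30.1%, beside 27.8%). Without WTATPgs replicate 3 it was 59 (71.1%, beside 53.8%). With adenosine 24 of 82 rose and 19 fell (52.4%, beside 50.2%), with a median of 0.020 against 0.002. With all 18 libraries in one fit the counts were 21 with ATPgs (25.3%, beside 20.5%) and 9 with adenosine (10.8%, beside 14.4%). Whether these shares differ from those of all genes was not tested, and the lists are described by their members. Of all genes tested, 17.7% rose and 19.4% fell with ATPgs, and 25.5% rose and 24.6% fell with adenosine. The counts per list below stand beside these shares and are too small to be read as results about a list.

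Among genes of uptake and export, 3 of 11 rose and 1 fell with ATPgs. Slc48a1, a heme transporter of endosomes and lysosomes, rose by 0.41 ± 0.05, and Lrp1, a scavenger receptor that takes up heme bound to hemopexin, 2.83-fold (SE 0.19 on the log2 scale). Lrp1 was at 3.73 to 3.86 CPM in WT and at 11.9, 12.5 and 7.72 CPM in WTATPgs, with the smallest value in the library that was lowest in myeloid markers. Flvcr1, a heme exporter, fell by 0.42 ± 0.07 with ATPgs and by 0.59 ± 0.05 with adenosine. Of 10 uptake and export genes tested with adenosine 2 rose and 4 fell, among them Slc39a14, which carries iron that is not bound to transferrin (-0.43 ± 0.03). Lrp1 rose there too, by 0.63 ± 0.14.

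In the list of regulators and iron chaperones, 3 of 10 rose and 2 fell with ATPgs, and 2 rose and 3 fell with adenosine. Tmprss6, a membrane protease that lowers hepcidin in liver, rose by 1.69 ± 0.14 from 2.72 to 8.83 CPM with ATPgs and by 0.50 ± 0.10 with adenosine. Hif1a, the oxygen-regulated transcription factor, rose by 0.42 ± 0.03 and by 0.19 ± 0.02. Herc2, part of a ubiquitin ligase that acts on the ferritin receptor NCOA4, fell by 0.24 ± 0.03 with adenosine and had -0.08 ± 0.04 with ATPgs, which did not pass.

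Iron-sulfur clusters are built first in mitochondria. Of 17 genes of that machinery 5 rose and 5 fell with ATPgs, and 5 rose and 3 fell with adenosine. Hspa9, the mitochondrial chaperone that helps to hand over new clusters, fell by 0.31 ± 0.03 and by 0.44 ± 0.02, while the scaffold Iscu rose by 0.27 ± 0.09 and by 0.29 ± 0.06. Slc25a37 (mitoferrin 1), which brings iron into mitochondria, fell by 0.24 ± 0.05 with ATPgs and had -0.09 ± 0.04 with adenosine, which did not pass. Of 7 genes of the cytosolic machinery 0 rose and 4 fell with ATPgs, where 37.1% of all genes tested passed. Ndor1 fell by 0.45 ± 0.04 and Nubp1 by 0.26 ± 0.06. With adenosine 1 of the 7 rose (Ciapin1, 0.16 ± 0.04) and 1 fell (Mms19, -0.12 ± 0.04), where 50.2% of all genes tested passed.

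Of 12 heme genes 3 rose and 3 fell with ATPgs, where 37.1% of all genes tested passed. With adenosine 6 rose and 1 fell, where 50.2% of all genes tested passed. Fech, the enzyme that inserts iron into heme, rose by 0.40 ± 0.08 and by 0.60 ± 0.09, and Urod, an earlier enzyme of the pathway, by 0.33 ± 0.09 and by 0.66 ± 0.08. Many genes with Hmox1 and ferritin are known targets of the transcription factor NRF2 (Nfe2l2) or its rival BACH1. Of 16 on that list 3 rose and 2 fell with ATPgs, and 5 rose and 3 fell with adenosine. Nfe2l2 itself rose by 0.41 ± 0.06 and by 0.14 ± 0.04. Slc7a11, also on that list, fell with adenosine and is described below. Srxn1, an antioxidant enzyme, rose by 0.56 ± 0.03 with adenosine, and was at 525, 542 and 401 CPM in WTATPgs against 431 to 441 CPM in WT, where it did not pass.

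Ferroptosis is cell death by iron-dependent lipid oxidation. Of 10 genes that guard against or feed it, 3 rose and 2 fell with ATPgs, and 3 rose and 4 fell with adenosine. Gpx4, the enzyme that reduces lipid peroxides, was at 48.4 to 51.2 CPM in WT and at 82.4 to 89.9 CPM in WTATPgs, with no overlap. It rose by 0.79 ± 0.05 with ATPgs and by 0.60 ± 0.04 with adenosine. Slc7a11, the cystine importer that feeds glutathione, was counted on the list of NRF2 and BACH1 targets and not among these 10. It fell by 0.76 ± 0.06 with adenosine. In set 1 it was at 30.9 to 33.2 CPM in WT and at 76.6, 82.2 and 38.7 CPM in WTATPgs, where replicate 3 again stood near the controls, and it did not pass (1.05 ± 0.31, edgeR adjusted p = 0.0532). Its partner chain Slc3a2 rose by 0.20 ± 0.04 with ATPgs and fell by 0.23 ± 0.02 with adenosine.

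**Figure D5:**
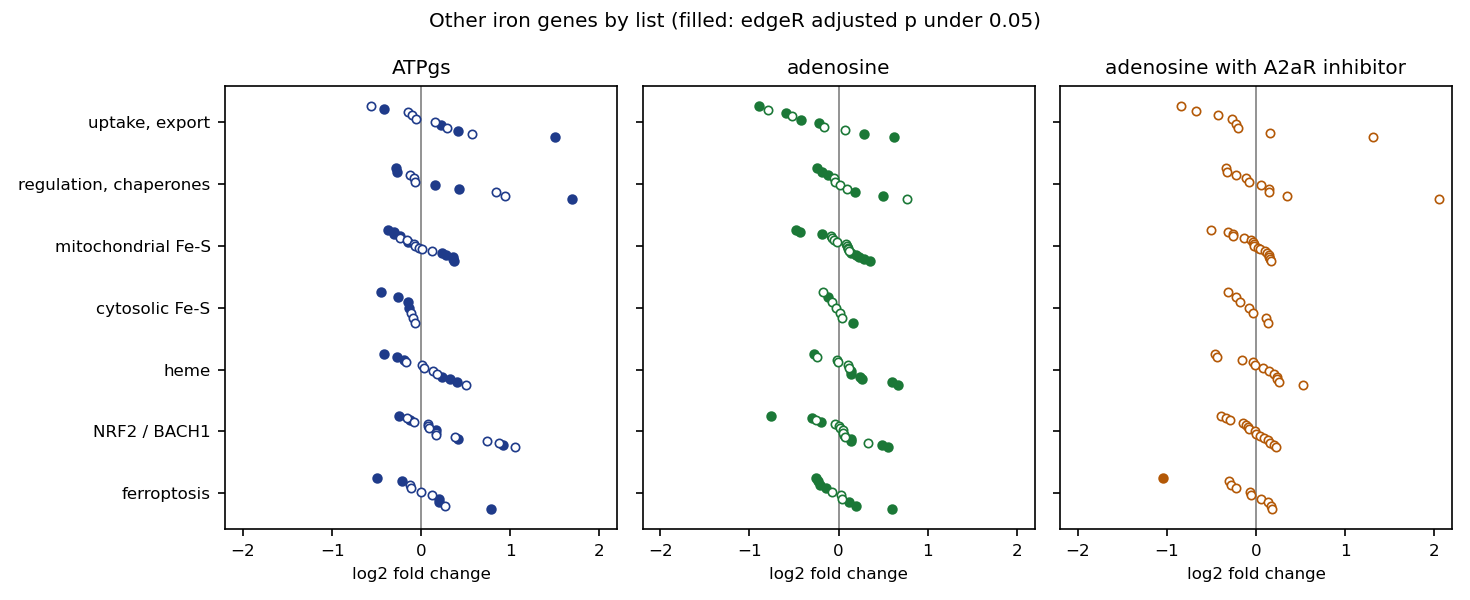
Log2 fold change (treated minus control of the same set) of each tested iron gene outside the 9, by list; filled points passed an edgeR adjusted p of 0.05. Filled points lie on both sides of 0 with ATPgs (20 and 19 genes) and adenosine (24 and 19), and 1 gene, Gch1, is filled in set 3.

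With the inhibitor present, 0 of 79 of these genes rose and 1 fell (1.27%, beside 1.14% of all genes), with a median of -0.034 against -0.036. The gene was Gch1, which makes the antioxidant cofactor tetrahydrobiopterin: it was at 60.7, 55.8 and 37.7 CPM in R and at 25.2, 25.7 and 24.1 CPM in RA, without overlap (-1.04 ± 0.20, edgeR adjusted p = 0.0400). The count was 9 without R replicate 3 (11.4%, beside 13.0% of all genes), 2 without R replicate 2 (2.53%, beside 1.68%), and 0 when any other library was left out. Gpx4 was at 143, 112 and 129 CPM in R and at 108, 106 and 101 CPM in RA (-0.29 ± 0.16, which did not pass). In the test of the difference between sets 2 and 3, 2 of 83 passed, Gpx4 (-0.90 ± 0.15, edgeR adjusted p = 0.004086) and Gch1 (-0.84 ± 0.17, edgeR adjusted p = 0.0179). Both differed in the direction of Ftl1.

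Apart from Fth1, Ftl1 and Slc40a1, the hairpin letters were found in the 5′ UTR of Alas2, Atrx, Ftl1-ps1, Ppp1r1b, Serpina3g and Wdfy1, a description that shows no site of binding. With ATPgs 4 of these 6 were tested, and 0 rose and 2 fell, where 37.1% of all genes tested passed. With adenosine all 6 were tested, and 2 rose (Ftl1-ps1 and Wdfy1) and 3 fell (Atrx, Ppp1r1b and Serpina3g), where 50.2% of all genes tested passed. Nothing is read from counts among so few genes. Serpina3g, a serine protease inhibitor, fell by 0.65 ± 0.04 with ATPgs, by 0.35 ± 0.02 with adenosine and by 1.13 ± 0.19 with adenosine and inhibitor (edgeR adjusted p = 0.0199). Atrx, a chromatin remodeller, fell by 0.25 ± 0.05 with ATPgs and by 0.27 ± 0.04 with adenosine. Wdfy1 rose by 0.19 ± 0.06 with adenosine, and Ppp1r1b fell by 0.86 ± 0.32, from 1.26 to 0.690 CPM. Ftl1-ps1, a near copy of Ftl1, rose by 0.64 ± 0.12 with adenosine, from 6.32 to 9.85 CPM. Reads of Ftl1 and its copy may be exchanged by the counting, so its value is uncertain.

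The genes whose levels ran most like Fth1 over the 18 libraries, after the mean of each set was subtracted, were P2ry10 (Pearson r = 0.981), Gramd3 (0.978), Crem (0.977), Dnajb4 (0.977) and Cytip (0.976), among 9928 genes. For Ftl1 they were Mvk (0.949), Prdx6 (0.946), Ifitm2 (0.944), Prr7 (0.935) and Gpx4 (0.927), and Fth1 and Ftl1 themselves had r = 0.821. The points share libraries and treatment, so these values describe the order of genes and carry no p. P2ry10, a receptor for lysophospholipids, had log2 fold changes of 1.59 ± 0.09, 1.28 ± 0.03 and 0.15 ± 0.29 in sets 1, 2 and 3. Crem, a factor that responds to cyclic AMP, had 1.53, 1.24 and 0.46. Prdx6, a peroxidase that can repair oxidised membrane lipids, had 0.49 ± 0.06, 0.24 ± 0.03 and -0.16 ± 0.15, the order of signs seen for Ftl1.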

How the data were processed

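RNA-seq counts per Ensembl gene in 18 libraries were used as the authors deposited them, in 3 tables of whole-number counts. Reads were aligned with HISAT2 2.1.0 to GRCm38 per the submitters' processing notes; how reads were counted, with which annotation release and strand setting, is not given in the sources used here. GENCODE M21 gave symbols, UTRs and transcripts and matched 99.7%, 99.8% and 99.8% of IDs in sets 1, 2 and 3. The members and lists were chosen with earlier results of these data known.

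Each ligand was compared with its own control libraries by edgeR 4.0.16 in R 4.3.3 (TMM, filterByExpr, robust two-sided quasi-likelihood test, Benjamini-Hochberg over all genes tested, threshold 0.05). SE is the log2 fold change divided by the square root of F. Levels per length used the transcript numbered 201. Named genes were the 9, the 2 smallest p per list and comparison at a mean of at least 5 CPM, and the 5 most like Fth1 and Ftl1 (log2 CPM, prior count 3). Not every gene that this rule named is reported here. Alternatives were RLE factors, library size only, DESeq2 1.42.0, limma-voom 3.58.1, no filter, at least 1 CPM in 3 libraries, all 18 libraries in one fit, a replicate block, summed ferritin copies, and leaving out each library. The test was tested on simulated data. No library pair of a group agreed within sampling noise (lowest chi-square per degree of freedom 1.65), so all were kept. Figures were drawn in Python 3.11.15 (matplotlib 3.10.9).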

Additional observations from a re-analysis of the deposited data

Results flagged for a closer look

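The effect of adenosine on Ftl1 differed between the set with the A2aR inhibitor and the set without it by -0.73 on the log2 scale, in a test of the difference itself (edgeR adjusted p = 0.009446). In that test 4.05% of all genes passed. By library size alone the call was lost (edgeR adjusted p = 0.149). Fth1 differed by -0.73 as well and did not pass (edgeR adjusted p = 0.0820). The inhibitor and the set cannot be told apart.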

How the results depend on the processing

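Directions of the called values held under every alternative run. Iron genes outside the 9 called with ATPgs were 39, with 21 when all 18 libraries shared a fit and 22 to 59 when single libraries were left out. With adenosine, the 5 calls among the 9 became 3 and the 43 outside them became 9 in that shared fit, where all genes called went from 7281 to 2309. With inhibitor, leaving out single libraries gave 0 to 1 calls among the 9 and 0 to 9 among the others, which had 1 call at first, 0 by library size, 2 with DESeq2, 3 without a filter and 4 in the shared fit. The single call in the difference became 0 by library size, 3 with DESeq2, 2 without a filter, 2 in the shared fit and 1 to 4 with single libraries left out. All genes called in the difference moved with it, from 606 to 240, 1387, 658, 1009 and 280 to 3051 in the same order. The cause was not tested. All genes called with inhibitor went from 147 to 1719 without R replicate 3 and to 36 without RA replicate 1. Slc11a2 passed with adenosine by library size only (edgeR adjusted p = 0.0310).

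Deviations of same-numbered libraries from their group means had correlations of -0.429 to 0.166 between control and treated, the highest for replicate 1 of R and RA. With 3 libraries in a group, these values cannot show whether a number marks a shared culture or animal. With a replicate block the calls among the 9 stayed at 5 with adenosine, 0 with inhibitor and 1 in the difference, and those outside them were 28 with ATPgs, 44 with adenosine and 1 with inhibitor. All genes called in the difference went from 606 to 379 under the block. Depth limits Slc40a1, and the spread of R limits set 3.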
